A study of Mus musculus with 10 samples.

Results

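Heparan sulfate is a sulfated sugar chain carried by cell surface and matrix proteins, where it binds growth factors and their receptors. The chain is polymerised in the Golgi by the Ext1 and Ext2 proteins. The N-deacetylase/N-sulfotransferases (Ndst1 to Ndst4) then replace acetyl groups on glucosamine by sulfate, and this step opens the chain to the epimerase Glce and the O-sulfotransferases Hs2st1, Hs6st1 and Hs6st2. Heparan sulfate has been described within mouse beta cells as well as in the islet basement membrane. The 10 genes of these enzymes were taken by symbol from a table of 24475 genes, and all 10 were present. The list was chosen by the RPKM values of the antibody comparison, in which Ndst4 stood out. That comparison is therefore given here as a description for the members, without p-values.

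The data are RNA sequencing libraries of pancreatic islets from C57BL/6 mice. The mice of 5 libraries (replicates 1 to 5) had received REGN1193, which blocks the receptor of glucagon (GCGR), and those of 5 others (replicates 6 to 10) an isotype control antibody. No other allele or agent is named, and the sources used here give no age, sex, dose or duration. Islets are mixtures of alpha, beta, delta and other cells. Whether each library stands for its own mouse is not in the labels, so every SE and p-value measures only the spread between libraries. Expression is in RPKM, reads per kilobase of transcript and megareads mapped, which allows levels to be compared between genes. The libraries held an estimated 14.6 to 18.1 megareads in the antibody group and 12.3 to 14.9 megareads in the isotype group. These ranges overlapped, but depth tended to be higher in the antibody group. The islet hormone genes were abundant in every library, and acinar enzyme genes were present too, with a summed level of 3696 to 11873 RPKM over 12 genes in antibody libraries and 2930 to 16323 RPKM in isotype libraries.

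Ndst3 and Ndst4 lie on the same chromosome, and Ndst4 can be measured only if its reads can be told from those of its relatives. In the coding sequences of GENCODE M21 (GRCm38), Ndst4 was 76.4% identical to Ndst3, 68.1% to Ndst1 and 64.5% to Ndst2. The longest run of bases shared by Ndst4 and Ndst3 was 56 bases, against 20 for Ndst1 and 17 for Ndst2. Coding sequence makes up 2616 of the 7417 bases of the Ndst4 transcript, and the rest was not compared. The following windows, over 90 coding bases 5′ to 3′, show the longest run shared with Ndst3. There, coding reads of Ndst3 and Ndst4 are hardest to tell apart. Ndst1 is not shown. Capitals mark bases that differ from Ndst4, 9 in Ndst3 and 26 in Ndst2.
Ndst4 (chr3:125570778-125570867, plus strand, exon 4 of 14, coding): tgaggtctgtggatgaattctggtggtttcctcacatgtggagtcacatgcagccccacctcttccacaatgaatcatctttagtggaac
Ndst3 (chr3:123627988-123628077, minus strand, exon 3 of 13, coding): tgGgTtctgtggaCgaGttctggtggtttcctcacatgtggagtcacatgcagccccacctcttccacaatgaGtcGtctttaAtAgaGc
Ndst2 (chr14:20728480-20728569, minus strand, exon 5 of 15, coding): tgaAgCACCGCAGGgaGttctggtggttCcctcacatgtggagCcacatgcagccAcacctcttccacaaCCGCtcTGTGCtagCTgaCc
The capitals frame the shared run in Ndst3 on both sides, whereas in Ndst2 they also break it up. Neither the read length nor the treatment of ambiguous reads is stated.

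Under the isotype antibody the members spanned more than 2 orders of magnitude. Hs6st1, which adds sulfate to the 6-O position of glucosamine, had the highest level at 19.6 ± 2.20 RPKM (SD, n = 5). Ndst1, the broadly expressed N-sulfotransferase, followed at 17.8 ± 1.31 RPKM and the polymerase subunit Ext2 at 16.0 ± 1.5 RPKM (SD, n = 5 each). The ranges of Hs6st1 and Ndst1 overlapped, as did those of Ndst1 and Ext2, although Ndst1 was above Ext2 in 5 of 5 libraries. Below a gap came Glce at 11.25 ± 2.0 RPKM, Ext1 at 10.3 ± 1.87 RPKM and Hs2st1 at 7.37 ± 1.02 RPKM (SD, n = 5 each), and neighbours in this order again overlapped. Ndst2 stood apart at 4.29 ± 0.22 RPKM and Ndst4 apart below it at 1.95 ± 0.41 RPKM (SD, n = 5 each). Hs6st2 and Ndst3 were near the limit of detection, at 0.119 ± 0.0192 and 0.0454 ± 0.0246 RPKM (SD, n = 5 each). In the antibody libraries Ndst4 had moved up from the eighth to the sixth place, next to Hs2st1. Ndst4 was above Hs2st1 in 4 of 5 of these libraries, with overlapping ranges, and below Glce and above Ndst2 in 5 of 5, with ranges apart.

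**Figure D1:**
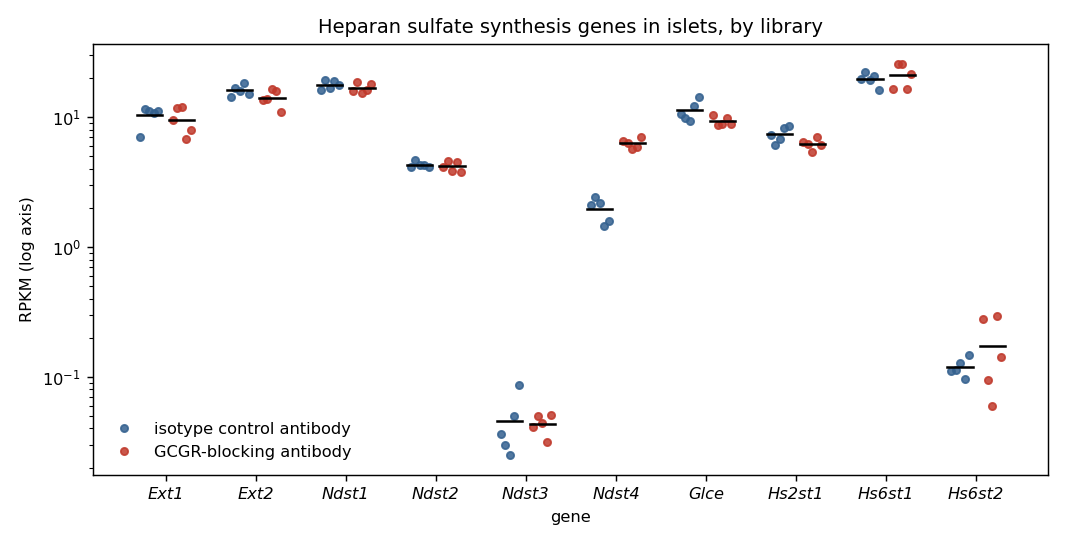
Level of each of the 10 heparan sulfate synthesis genes in RPKM (log axis) in 5 isotype (blue) and 5 antibody (red) libraries, with the group mean as a black bar. The groups stand apart at Ndst4, from 1.46 to 2.40 RPKM with the isotype antibody and from 5.70 to 7.06 RPKM with the GCGR-blocking antibody, and overlap in the other 9 genes.

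Ndst4 encodes an N-deacetylase/N-sulfotransferase described in vitro as having little deacetylase relative to sulfotransferase activity. In the antibody libraries it stood at 6.50, 6.36, 5.70, 5.89 and 7.06 RPKM in replicates 1 to 5. In the isotype libraries it stood at 2.12, 2.40, 2.18, 1.46 and 1.58 RPKM in replicates 6 to 10. The antibody libraries all lay above the isotype libraries, and isotype replicates 9 and 10 were the lowest. The ratio of the group means was 3.23, and the log2 fold change (antibody minus isotype, on log2(RPKM + 0.5)) was 1.49 (SE 0.13, limma). On an annotated transcript of 7417 bases these levels rest on an estimated 150 to 947 reads per library. In RefSeq's GRCm38.p6 the gene (Entrez 64580) lies on chromosome 3 from 125404029 to 125728351.

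Of the 10 members 8 reached the filter, an average of 0.5 RPKM across the 10 libraries, and entered the limma fit, each with both group means above that value. Among these 8, Ndst4 was called higher and none lower (limma, adjusted p under 0.05 over all tested genes). Of all 13450 tested genes, 0.394% were called higher and 0.0149% lower, 0.409% in all. Ndst4 was likewise the 1 tested member whose groups did not overlap, where 1.99% of all tested genes had such groups (1.14% higher and 0.84% lower with the GCGR-blocking antibody). Both counts follow from the choice of the list around Ndst4. The median log2 fold change was -0.09 over the 8 tested members and -0.07 over all tested genes. With a minimum mean of 5 RPKM Ndst4 is not tested, since its mean over the 10 libraries lies below that value.

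The other N-deacetylase/N-sulfotransferase genes had nearly the same level in both groups. Ndst1 ranged from 15.4 to 18.7 RPKM with the GCGR-blocking antibody and from 16.2 to 19.3 RPKM with the isotype antibody (log2 fold change -0.07, SE 0.10). Ndst2 ranged from 3.78 to 4.62 and from 4.11 to 4.64 RPKM, a log2 fold change of -0.04 (SE 0.10). These folds were 0.00 and 0.04 after median centring, so neither has a direction. Ndst3 was at 0.0436 ± 0.00782 RPKM with the GCGR-blocking antibody (SD, n = 5), an estimated 2 to 6 reads in any library, and no difference between groups can be read at that depth. Ndst3 (Entrez 83398), the closest relative in sequence, lies 1713 kb from Ndst4 on the same chromosome, from 123526166 to 123691174.

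The makeup of the N-deacetylase/N-sulfotransferase transcripts differed accordingly. Ndst4 made up 24.4%, 21.4%, 22.8%, 22.2% and 24.4% of the summed RPKM of Ndst1 to Ndst4 in antibody replicates 1 to 5, and 9.46%, 9.12%, 9.36%, 5.93% and 6.73% in isotype replicates 6 to 10. The group means were 23.0% ± 1.33 and 8.12% ± 1.66 (SD, n = 5 each), and the groups did not overlap. Ndst1 was the main transcript in both, with 61.6% ± 1.16 and 73.8% ± 1.95 (SD, n = 5 each). Ndst2, above Ndst4 in every isotype library, was below it in every antibody library. The summed level was 27.4 ± 1.93 RPKM with the GCGR-blocking antibody and 24.1 ± 1.51 RPKM with the isotype antibody (SD, n = 5 each), and these ranges overlapped. Without Ndst4 the sums were 21.1 ± 1.59 and 22.1 ± 1.48 RPKM (SD, n = 5 each). As parts of 1 sum, the other shares are lower wherever that of Ndst4 is higher. Transcript shares say nothing of enzyme amounts.

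**Figure D2:**
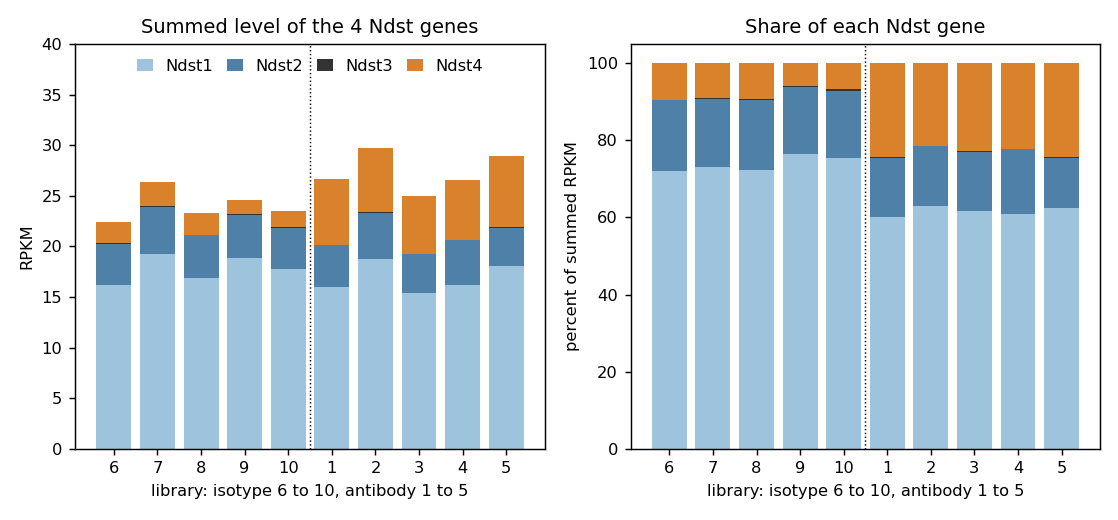
Left, the summed level of Ndst1 to Ndst4 in RPKM per library (isotype 6 to 10, then antibody 1 to 5), stacked by gene; right, each gene's percent of that sum. The Ndst4 segment is 5.93% to 9.46% of the sum in isotype libraries and 21.4% to 24.4% in antibody libraries.

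Both polymerase subunits were at similar levels in the 2 groups. Ext1, whose protein polymerises the chain in a complex with Ext2, ranged from 6.78 to 11.9 RPKM with the GCGR-blocking antibody and from 7.02 to 11.6 RPKM with the isotype antibody (log2 fold change -0.12, SE 0.18). Its spread came from a few libraries, with antibody replicate 4 and isotype replicate 6 the lowest of their groups. Ext2 ranged from 10.9 to 16.4 and from 14.4 to 18.2 RPKM (log2 fold change -0.19, SE 0.12). The ranges of both genes overlapped. Leaving out 1 library moved both folds, that of Ext1 to -0.01 without antibody replicate 4 and to -0.24 without isotype replicate 6, and that of Ext2 to -0.10 without antibody replicate 5.

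Enzymes that act after N-sulfation had small differences, and none was called. Glce, the epimerase that turns glucuronic into iduronic acid, was at 10.3, 8.68, 8.76, 9.76 and 8.85 RPKM in antibody replicates 1 to 5 and at 10.6, 9.85, 9.37, 12.2 and 14.3 RPKM in isotype replicates 6 to 10. The high values were those of isotype replicates 9 and 10, and the groups overlapped (log2 fold change -0.25, SE 0.12). Hs2st1, which sulfates the uronic acid, was at 6.45, 6.20, 5.42, 6.99 and 6.14 RPKM in antibody replicates 1 to 5 and at 7.31, 6.07, 6.72, 8.27 and 8.46 RPKM in isotype replicates 6 to 10. It had the same 2 highest libraries (log2 fold change -0.22, SE 0.12). The same 2 isotype libraries were the lowest in Ndst4. Without isotype replicate 10 the log2 fold changes of Glce and Hs2st1 were -0.17 each. Hs6st1 ranged from 16.4 to 25.8 RPKM with the GCGR-blocking antibody and from 16.2 to 22.3 RPKM with the isotype antibody (log2 fold change 0.09, SE 0.15), and its fold ran from 0.01 to 0.17 when each library was left out in turn. Hs6st2, the second 6-O-sulfotransferase, was at 0.173 ± 0.107 and 0.119 ± 0.0192 RPKM (SD, n = 5 each), an estimated 4 to 21 reads per library, and was too low to be tested.

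Deviations from the group means show how the 8 tested members varied together over the 10 libraries. Of 28 pairs, Glce and Hs2st1 had the highest Pearson r, 0.82, and Ndst4 and Glce the lowest, -0.72. Without isotype replicates 8 and 10, the libraries farthest from their group mean in Glce, the first was 0.81. Libraries share depth and composition across genes, and these values are a description.

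Alpha cell genes were higher in the same libraries, and the folds of several other marker lists lay on 1 side of 0 without a call. Of a list of 11 alpha cell markers all 11 had positive folds and 8 were called higher (limma, adjusted p under 0.05), with a median log2 fold change of 1.16. One of them, Pou3f4, not called, reached the filter through the antibody libraries (0.927 RPKM, against 0.439 RPKM in the isotype libraries). The 4 tested delta cell markers all had positive folds (median 0.70), as had both pancreatic polypeptide cell markers (median 0.72). The 12 beta cell markers and the 12 acinar markers all had negative folds (medians -0.44 and -0.63), where 66.5% of all tested genes had negative folds. In these 4 lists limma called no gene. At an unadjusted p under 0.05 it counted 4 delta and 1 pancreatic polypeptide cell markers higher and 3 beta cell and 2 acinar markers lower. Of all tested genes, limma called 0.394% higher and 0.0149% lower, and 2.84% were higher and 4.18% lower at the unadjusted level. The part of these cell types in the Ndst4 difference was not tested. The summed level of the alpha cell list, mostly Gcg (proglucagon), ran from 55240 to 84316 RPKM in antibody libraries and from 10243 to 18222 RPKM in isotype libraries, and none of the list was at 0 in any library. In islet libraries more cells of a type and more RNA per cell cannot be told apart. The mean log2 level of the 11 genes was higher by 1.29 in the antibody libraries, beside 1.49 for Ndst4. The level of Ndst4 relative to that mean was -2.92 ± 0.16 with the GCGR-blocking antibody and -3.12 ± 0.13 with the isotype antibody on the log2 scale (SD, n = 5 each), and these ranges, -3.08 to -2.75 and -3.27 to -2.94, overlapped. The direction depended on the reference and on the scaling. Relative to Gcg alone Ndst4 was lower in the antibody libraries by a log2 difference of -0.90, with ranges apart (-13.45 to -12.82 against -12.63 to -11.88). With a pseudocount of 0.1 the log2 fold changes of Ndst4 and Gcg were 1.66 and 2.39. After quantile normalization they were 1.53 and 1.41, in the opposite order. In every other setting that tested both genes, the fold of Gcg was the higher. Relative to the median of the other 10 alpha cell genes Ndst4 was higher by 0.28, again with ranges apart (-1.02 to -0.86 against -1.38 to -1.14). Whether Ndst4 transcripts come from alpha cells was not tested.

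**Figure D3:**
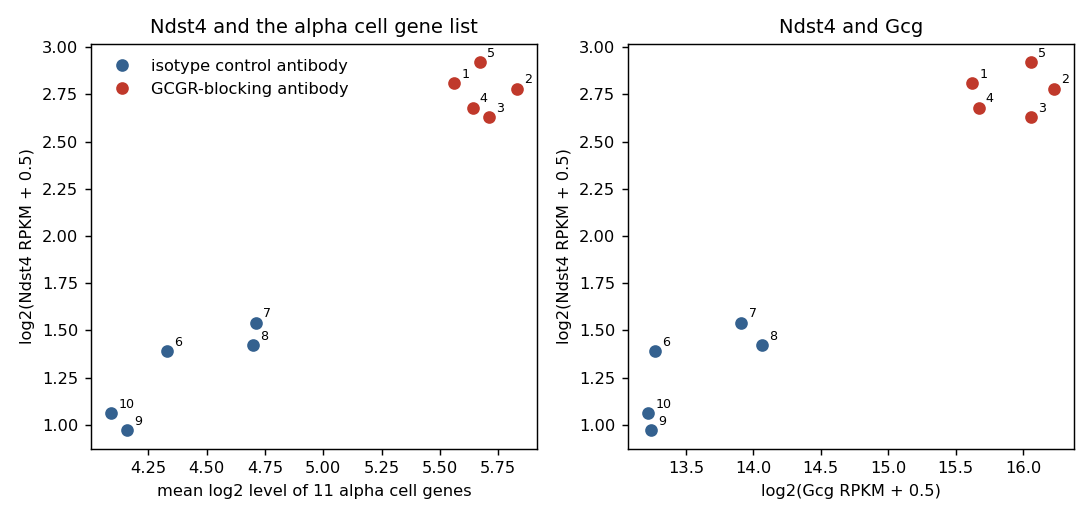
Level of Ndst4 as log2(RPKM + 0.5) against the mean log2 level of 11 alpha cell genes (left) and against log2(Gcg RPKM + 0.5) (right), with 1 point per library labelled by replicate number. The 5 antibody libraries (red) and the 5 isotype libraries (blue) form separate clusters on both axes, so no pooled correlation is drawn.

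Among the 13449 other tested genes, those most like Ndst4 over the 10 libraries were genes that separate the groups. Pearson r was 0.983 for Slc38a5, a glutamine carrier, 0.982 for Adamts18, a secreted metalloprotease, 0.978 for Scin, the actin-severing protein scinderin, and 0.977 each for Gcg and Ifih1, a sensor of double-stranded RNA. Their log2 fold changes were 3.91, 1.04, 0.50, 2.39 and 1.26. Of these Scin was not called (limma adjusted p = 0.259). Adamts18 was tested because of its antibody libraries, since its isotype mean of 0.376 RPKM lies under the filter, and its fold was 1.57 and 0.74 with pseudocounts of 0.1 and 1. Gcg was not called without a filter on low values (limma adjusted p = 0.784), although its fold stayed at 2.39. Gcg was called in every other setting, and its fold was 1.41 after quantile normalization. Since the libraries fall into 2 clusters, these values mostly restate the group difference. Over deviations from the group means the same genes had lower r, from 0.555 for Adamts18 to 0.744 for Scin.

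The list of related genes held 69 further genes in 7 classes, of which 53 were tested. Of these, 53 listed and 42 tested genes belong to 6 heparan sulfate classes, and 16 listed and 11 tested genes to chondroitin and dermatan sulfate synthesis. None was called in either direction (limma, adjusted p under 0.05), where 0.409% of all tested genes were. At an unadjusted p under 0.05 limma counted 1 higher and 7 lower of the 53, where 2.84% of all tested genes were higher and 4.18% lower at that level. Over the 53 genes the median log2 fold change was -0.07, equal to that of all tested genes, and 39 of the 53 folds were negative, where 66.5% of all tested genes had negative folds. Of the 53 genes 2 had groups that did not overlap, Sdc2 and Chst11, where 1.99% of all tested genes had such groups.

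**Figure D4:**
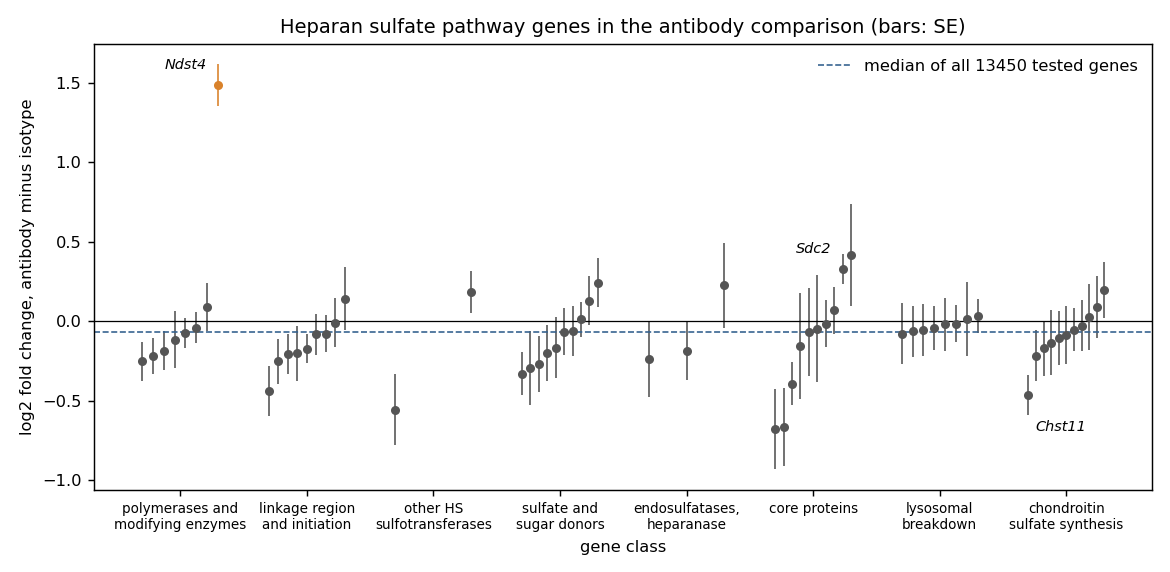
Log2 fold change (antibody minus isotype) with its SE for the 8 tested members (first class) and the 53 tested genes of 7 further classes. Ndst4 (orange, called) lies at 1.49, while all other genes lie between -0.68 and 0.42, and the dashed line is the median of all 13450 tested genes.

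The linkage region, the short sugar stem that joins the chain to its protein, is made and primed by enzymes of which 9 of 10 were tested. Fam20b, the xylose kinase that promotes chain elongation, was at 32.6 ± 2.49 and 36.8 ± 2.03 RPKM in antibody and isotype libraries (SD, n = 5 each). B3gat3, which adds the glucuronic acid of the stem, was at 26.0 ± 3.75 and 27.5 ± 3.25 RPKM, and Extl2, an exostosin-like transferase, at 13.6 ± 1.62 and 14.3 ± 1.65 RPKM (SD, n = 5 each). The median log2 fold change of this class was -0.17. The largest difference in it, named after its value was seen, was in Pxylp1, the phosphatase that acts against Fam20b (-0.44, SE 0.16, limma adjusted p = 0.533).

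Of 8 other sulfotransferases of heparan sulfate, 2 were expressed above the filter. Hs6st3 was at 6.52 ± 0.92 RPKM with the GCGR-blocking antibody and 5.68 ± 0.90 RPKM with the isotype antibody (SD, n = 5 each). With Hs6st1 it made up nearly all 6-O-sulfotransferase transcript. Hs3st6, of the family that adds the rare 3-O-sulfate, was at 8.11 ± 3.23 and 11.7 ± 2.15 RPKM (SD, n = 5 each; limma log2 fold change -0.56 with SE 0.22, adjusted p = 0.635). Hs3st1 was at 0.571 ± 0.224 and 0.247 ± 0.154 RPKM (SD, n = 5 each) and was not tested.

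Genes that supply sulfate and sugar donors included the most abundant of the pathway. Papss2, a synthase of the sulfate donor PAPS, was at 126.4 ± 15.0 RPKM with the GCGR-blocking antibody and 159.9 ± 26.6 RPKM with the isotype antibody (SD, n = 5 each; limma log2 fold change -0.33 with SE 0.14, adjusted p = 0.649). The related Papss1 was at 30.6 ± 8.28 and 34.6 ± 5.21 RPKM (SD, n = 5 each). Ugdh, which makes UDP-glucuronic acid, was at 25.2 ± 3.30 and 32.9 ± 14.9 RPKM (SD, n = 5 each), with isotype libraries from 19.6 to 58.4 RPKM. All 10 genes of the class were tested, with a median log2 fold change of -0.12.

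Of 13 core proteins that carry the chains 10 were tested, and none was called (limma, with 1 higher and 3 lower at an unadjusted p under 0.05, beside 2.84% and 4.18% of all tested genes). The glypican Gpc4 was at 38.8 ± 7.07 and 36.8 ± 5.18 RPKM and the syndecan Sdc4 at 25.5 ± 5.20 and 25.5 ± 3.03 RPKM in antibody and isotype libraries (SD, n = 5 each). Sdc3 was at 10.3 ± 1.5 and 13.6 ± 2.07 RPKM (SD, n = 5 each; limma log2 fold change -0.39 with SE 0.13, adjusted p = 0.489). Sdc2, named after its value was seen, ranged from 12.8 to 15.0 RPKM with the GCGR-blocking antibody and from 10.35 to 12.3 RPKM with the isotype antibody. Its groups did not overlap, but the difference did not pass (log2 0.33, SE 0.10, limma adjusted p = 0.327). With array weights Sdc2 was called higher (0.39, limma adjusted p = 0.0297). Sdc1 and the matrix proteoglycan Agrn, also named after their values were seen, had log2 fold changes of -0.68 (SE 0.25, limma adjusted p = 0.587) and -0.67 (SE 0.24, limma adjusted p = 0.576). Both genes are also known from duct and other epithelial cells. The 8 ductal markers summed to 358.3 to 1163 RPKM in antibody and 405.7 to 645.2 RPKM in isotype libraries, and their part in these folds was not tested.

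No chain removal or breakdown gene was called (limma, adjusted p under 0.05), beside 0.409% of all tested genes. The endosulfatases, which take 6-O-sulfate off finished chains, were low, with Sulf2 at 2.85 ± 1.15 and 2.34 ± 0.86 RPKM and Sulf1 at 0.824 ± 0.415 and 1.02 ± 0.287 RPKM in antibody and isotype libraries (SD, n = 5 each). Heparanase, Hpse, was at 2.57 ± 0.78 and 2.93 ± 0.53 RPKM (SD, n = 5 each). The log2 fold changes of Sulf2, Sulf1 and Hpse were uncertain, at 0.227 (SE 0.267), -0.239 (SE 0.235) and -0.184 (SE 0.183). The 8 lysosomal genes were all tested, with a median log2 fold change of -0.03. The iduronate sulfatase Ids was at 117.6 ± 6.49 and 115.4 ± 14.2 RPKM and the glucuronidase Gusb at 22.7 ± 5.88 and 23.3 ± 2.77 RPKM (SD, n = 5 each).

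Chondroitin sulfate shares the linkage region with heparan sulfate, and 11 of 16 genes of its synthesis were tested. Chst11, the 4-O-sulfotransferase of chondroitin, ranged from 18.3 to 23.7 RPKM with the GCGR-blocking antibody and from 24.4 to 33.7 RPKM with the isotype antibody. The groups did not overlap, but the difference did not pass (log2 -0.47, SE 0.13, limma adjusted p = 0.276). The polymerising factors Chpf and Chpf2 were at 26.6 ± 7.70 and 28.6 ± 5.05 RPKM and at 13.1 ± 2.52 and 14.1 ± 2.90 RPKM (SD, n = 5 each).

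The position of Ndst4 was compared with that of its neighbours among RefSeq protein-coding genes. The next gene on one side, Ugt8a, which encodes the galactosyltransferase of galactosylceramide synthesis, begins 137 kb after Ndst4, at 125865272. Ugt8a was at 1.0, 1.20, 0.874, 0.854 and 0.842 RPKM in antibody replicates 1 to 5 and at 0.394, 0.583, 0.449, 0.317 and 0.216 RPKM in isotype replicates 6 to 10. The groups did not overlap, and isotype replicates 9 and 10 were again the lowest. This order is not particular to these neighbours. In the mean log2 level of the 11 alpha cell genes, isotype replicates 9 and 10 were also the lowest (4.16 and 4.09, other isotype libraries 4.33 to 4.71). The same held for Gcg (13.24 and 13.22, others 13.27 to 14.06). The log2 fold change of Ugt8a was 0.71 (SE 0.16), and 1.14 and 0.49 with pseudocounts of 0.1 and 1. This did not pass (limma adjusted p = 0.134), except without a variance trend (limma adjusted p = 0.0437), and its isotype mean of 0.392 RPKM lies under the filter, so that it was tested because of its antibody libraries. On the other side the nearest gene with reads was Tram1l1, a relative of a translocation protein gene. Tram1l1 ends at 124323260 and Ndst4 begins at 125404029, so it lies much farther from Ndst4 than Ugt8a. Tram1l1 was at 0.851 ± 0.214 and 0.814 ± 0.0817 RPKM (SD, n = 5 each), a log2 fold change of 0.03 with SE 0.16. Beyond Ugt8a, Arsj was listed at 0.0376 ± 0.0286 and 0.0159 ± 0.00904 RPKM (SD, n = 5 each), too low to be tested.

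**Figure D5:**
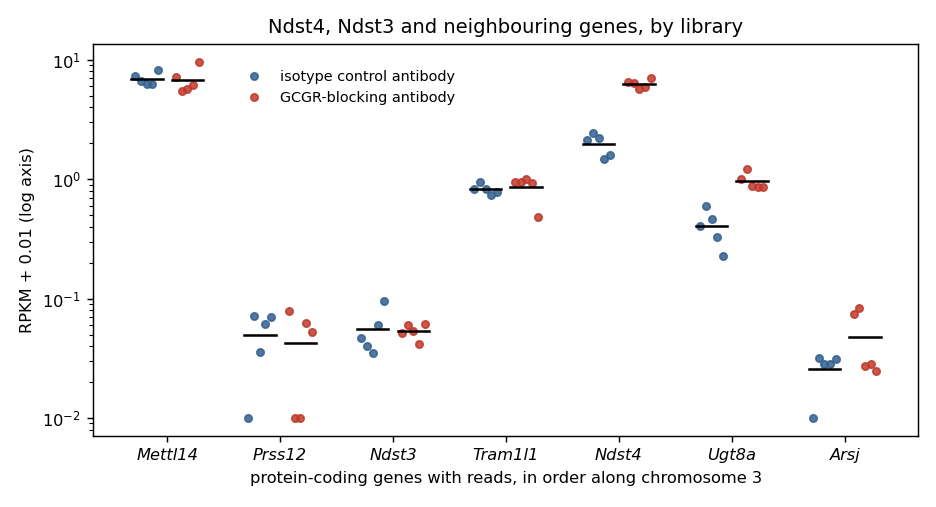
Level (RPKM + 0.01, log axis) of protein-coding genes around Ndst3 and Ndst4, in their order along chromosome 3 and leaving out genes at 0 in all libraries, in isotype (blue) and antibody (red) libraries with group means as black bars. The groups stand apart at Ndst4 and at Ugt8a (0.842 to 1.20 against 0.216 to 0.583 RPKM) and overlap at the other genes shown.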

How the data were processed

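RNA was measured by sequencing in 10 islet libraries, 5 per group. The authors deposited RPKM values, 1 column per library, which the titles match to the samples. The submitters' processing notes name CASAVA 1.8.2, FastQC and the builds GRCm38 and mm10, with no roles, while for the aligner, the counting and the annotation the entry is not given in the sources used here. Depth was estimated from the steps that single reads leave in low RPKM values, using 17505 genes whose RefSeq-linked transcripts have 1 length in GENCODE M21. Of the low values, 66.4% to 71.3% per library lay within 0.1 of a whole read, so counts were not recovered and no count model was run.

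Values were used as log2(RPKM + 0.5), a scale that understates changes of low genes, for genes averaging 0.5 RPKM or more. The group comparison used limma 3.58.1 under R 4.3.3 (eBayes with a variance trend, Benjamini-Hochberg over 13450 genes, threshold 0.05), a step tested on simulated data. Python 3.11.15, pandas 2.3.3 and Biopython 1.88 were used besides. Alternatives were other pseudocounts, filters and scalings, no variance trend, array weights and leaving out libraries. Named genes were the members, called pathway genes, up to 3 per pathway class with the highest isotype level, the 5 most like Ndst4 by either correlation, and Gcg. Some results are not reported here. The members and lists were chosen with earlier results of these data known.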

Additional observations from a re-analysis of the deposited data

Results flagged for a closer look

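In 94 groups of 5 libraries, 6 libraries lay apart from the other 4 by Dixon's test (a gap of more than 0.71 of the group's range), where chance gives about 1 in 20 groups. Among the members this was Ext1 in isotype replicate 6, at 7.02 RPKM against 10.7 to 11.6 RPKM in the other isotype libraries. Hs3st1 was at 0.520 RPKM in isotype replicate 8, with the others at 0.138 to 0.199 RPKM. Of the genes most like Ndst4, Slc38a5 was at 84.5 RPKM in antibody replicate 5 (others 35.9 to 49.1 RPKM), Adamts18 at 1.17 RPKM in antibody replicate 4 (others 1.33 to 1.35 RPKM) and Scin at 0.619 RPKM in isotype replicate 7 (others 0.467 to 0.496 RPKM). Fdft1, the squalene synthase gene, was at 37.7 RPKM in antibody replicate 5, with the others at 21.7 to 23.3 RPKM.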

How the results depend on the processing

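No paired analysis was possible because the labels give no pairing, and the numbers 1 to 5 and 6 to 10 only count the samples. The log2 fold change of Ndst4, on which the list was chosen, ran from 1.32 to 1.66 over the 18 alternative settings that tested it (1.41 to 1.55 leaving out each library in turn), as a description. At a minimum mean of 5 RPKM it is not tested, so 0 members were called higher. Relative to Gcg alone the Ndst4 difference was -0.904, but after quantile normalization the fold of Ndst4, 1.53, was above that of Gcg, 1.41. No other setting that tested both genes gave that order. Array weights called 1 other pathway gene higher, Sdc2. Over all genes, where 53 were called higher and 2 lower, array weights gave 121 and 61, a minimum mean of 5 RPKM 23 and 0, and leaving out each library 31 to 50 and 0 to 20. Calls lower numbered 1 with no filter, 1 with no variance trend, 5 with quantile normalization and 5 without antibody replicate 5 and isotype replicate 10. The causes were not tested.

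Folds near 0, none of them called, changed sign. Median centring gave 0.004 for Ndst1, 0.037 for Ndst2, 0.0 for Extl2 and Gusb and 0.061 for Sdc4. Quantile normalization gave 0.019 for Ndst2 and 0.042 for Sdc4. Array weights gave 0.02 for Hpse, 0.157 for Sdc4, -0.031 for Ids, 0.065 for Gusb and 0.027 for Chpf. Without antibody replicate 5 and isotype replicate 10 the folds were 0.003 for Extl2 and Chpf, 0.057 for Sdc4, 0.108 for Gusb and 0.075 for Chpf2. Leaving out each library in turn, folds ran from -0.131 to 0.005 for B3gat3, -0.013 to 0.18 for Gpc4, -0.09 to 0.095 for Sdc4, -0.025 to 0.084 for Ids, -0.152 to 0.114 for Gusb, -0.258 to 0.043 for Chpf and -0.199 to 0.02 for Chpf2. Of 694 values over 37 genes, 663 kept their direction and side of the threshold. Most of these genes were far from the threshold in the main fit, so keeping its side says little of their stability. Ndst3 and Hs6st2 are limited by depth.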

Other observations

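Over deviations from the group means in 10 libraries, the highest Pearson r with Ndst4 was 0.896 for Ednrb, an endothelin receptor, followed by Fdft1 (0.889), Cped1 (0.881), Cdh5 (0.861), the cadherin of endothelial junctions, and Igfbp3 (0.860), an insulin-like growth factor binding protein. Without isotype replicates 7 and 9, which lay farthest from their group mean in Ndst4, these values were 0.841, 0.874, 0.732, 0.83 and 0.715. Among the genes most like Ndst4 across the groups, this r was 0.744 for Scin, 0.657 for Slc38a5, 0.652 for Ifih1 and 0.603 for Gcg. The first 5 are the top of 13449 genes over 10 libraries and are given as a description.

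Over 8 endothelial markers, among them Cdh5 named above, the median r was 0.74 (0.06 to 0.86). The median was 0.58 (-0.59 to 0.76) over 12 acinar markers and 0.48 (0.14 to 0.82) over 11 alpha cell markers. For the other lists it was 0.36 (macrophage and lymphocyte), 0.27 (delta), 0.18 (ductal), 0.17 (pancreatic polypeptide), 0.05 (mesenchymal), 0.04 (beta) and -0.59 (Schwann). Over all tested genes it was -0.17. The endothelial markers summed to 26.6 to 38.6 RPKM in antibody libraries and 19.9 to 55.0 RPKM in isotype libraries, ranges that overlapped, with a median log2 fold change of -0.12 and no call (limma, with none at an unadjusted p under 0.05).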
